A study of Homo sapiens with 6 samples.

Results

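The subunits that build the membrane sector of the vacuolar H+-ATPase (V-ATPase) were examined in REH cells with and without silencing of the ETV6/RUNX1 fusion gene. The set comprised 10 genes, namely the a subunit genes ATP6V0A1, ATP6V0A2, TCIRG1 and ATP6V0A4, the further membrane subunit genes ATP6V0B, ATP6V0C, ATP6V0D1 and ATP6V0E1, and the accessory subunit genes ATP6AP1 and ATP6AP2. Members were found by matching the RefSeq accession of each Agilent catalogue probe to a gene, and ATP6V0A4 was set against the other a subunits. This gave 9 probes, 1 for each gene except ATP6V0A2, to which no catalogue probe was matched, out of 57176 probes and 19721 named genes on the array. The set was selected on the large difference of ATP6V0A4 between knockdown and control on these same arrays, so all values of that gene are given as a description, without a test.

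REH, a line of acute lymphoblastic leukemia cells of the B-cell precursor type that carries the ETV6/RUNX1 fusion, was profiled on 6 one-colour Agilent arrays. According to the labels, RNA on 3 arrays came from cells that received a short hairpin RNA (shRNA) given as non-targeting, the control group, and RNA on the other 3 from cells whose shRNA was aimed at the fusion, the knockdown group. Both groups were transduced with lentivirus and sorted for the green fluorescent protein of the vector, per the study's methods. The methods also state that the control hairpin is itself directed against ETV6 but does not reach the fusion transcript. The study's text adds that the knockdown hairpin binds the ETV6 part of the fusion, and that REH has lost its other ETV6 allele. All cells came from a single line, and a single hairpin was used per group. The study describes its replicates as biological triplicates.

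The V-ATPase is a rotary proton pump that acidifies lysosomes, endosomes, the Golgi and secretory vesicles, and in some cells it pumps protons across the plasma membrane. A cytosolic sector, V1, hydrolyses ATP and turns a rotor, and the membrane sector, V0, carries protons across the membrane through a ring of proteolipid subunits that rotates against the a subunit. Mammals have several a subunit genes, and the isoform used helps set where the pump resides. ATP6V0A4 is known from acid-secreting cells of the kidney and inner ear, TCIRG1 from lysosomes and osteoclasts, ATP6V0A2 from the Golgi and endosomes, and ATP6V0A1 from neurons.

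Promoter sequences are shown for ATP6V0A4, which carries the largest difference of the set, for its chromosomal neighbor SVOPL, which was lower in the same arrays, and for ATP6V0B, the member with the most matches to the RUNX and E-box letters marked here. Each sequence is the 250 bases before an annotated transcription start in RefSeq (GRCh38.p14), read 5′ to 3′ on the gene's strand. Capitals mark matches on either strand to the RUNX motif letters TGTGGT or TGCGGT and to the E-box CACGTG, which the MiT/TFE factors that drive lysosomal genes can bind. Both ATP6V0A4 starts, at chr7:138798197-138798446 and chr7:138773936-138774185 on the minus strand, are given, together with SVOPL at chr7:138701363-138701612 on the minus strand and ATP6V0B at chr1:43974710-43974959 on the plus strand.
ATP6V0A4, upstream start: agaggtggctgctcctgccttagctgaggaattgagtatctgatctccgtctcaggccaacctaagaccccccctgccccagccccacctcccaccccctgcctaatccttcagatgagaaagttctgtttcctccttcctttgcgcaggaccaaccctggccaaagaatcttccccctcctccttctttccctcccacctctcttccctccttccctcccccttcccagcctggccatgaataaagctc
ATP6V0A4, downstream start: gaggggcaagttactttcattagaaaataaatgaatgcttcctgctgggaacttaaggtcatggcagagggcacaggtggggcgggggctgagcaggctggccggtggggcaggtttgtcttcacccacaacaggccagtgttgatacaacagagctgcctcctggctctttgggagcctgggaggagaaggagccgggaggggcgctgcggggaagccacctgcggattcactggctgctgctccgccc
SVOPL, upstream start: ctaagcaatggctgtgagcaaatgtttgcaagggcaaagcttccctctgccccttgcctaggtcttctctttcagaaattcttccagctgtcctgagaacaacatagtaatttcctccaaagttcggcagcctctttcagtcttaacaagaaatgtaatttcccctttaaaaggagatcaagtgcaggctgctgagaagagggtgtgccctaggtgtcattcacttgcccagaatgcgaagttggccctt
ATP6V0B: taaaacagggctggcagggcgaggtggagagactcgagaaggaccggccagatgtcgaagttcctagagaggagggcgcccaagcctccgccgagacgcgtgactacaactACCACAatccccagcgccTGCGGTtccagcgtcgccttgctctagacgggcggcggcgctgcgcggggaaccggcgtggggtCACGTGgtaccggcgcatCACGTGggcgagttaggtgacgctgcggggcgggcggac

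The windows of ATP6V0A4 and SVOPL held none of these letters, whereas that of ATP6V0B held 1 match to TGTGGT, 1 to TGCGGT and 2 to CACGTG. Promoter windows were at hand for 9 of the 10 members, and not for ATP6V0E1. These 9 members had 12 windows, and a member was counted if any of its windows held a match. The shares over all windows count single windows, so the 2 measures are not alike. TGTGGT was found in 2 of these 9 members, ATP6V0B and ATP6V0C, and in 10.98% of all 35116 promoter windows. TGCGGT was found in 1 of 9 members against 5.84% of all windows, and CACGTG in 2 of 9 members, ATP6V0B and ATP6V0D1, against 6.34%. The ETS core letters GGAA occurred in 9 of 9 members, with 8 and 3 matches in the 2 ATP6V0A4 windows, and in 92.74% of all windows. A match is a description of the letters, and an absent match says nothing about binding of a factor.

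Expression values are given on a normalized log2 scale, which flattens differences between dim spots, and raw values are median spot intensities. Raw medians per array ran from 66 to 75, against 42.25 to 48 for negative control spots, and the scanner software marked 45.8% to 50.9% of probes as well above background. After a filter against negative controls, 27425 probes were retained, and a probe with a Benjamini-Hochberg adjusted p under 0.05 in limma over all of them is said to be called. The targeted gene was examined first: of 2 ETV6 probes, 1 was retained (A_33_P3356325), and it measured 7.91, 8.05 and 8.37 in control and 7.49, 7.45 and 7.28 in knockdown (log2 fold change -0.70, SE 0.14, limma adjusted p = 0.0513). The 5 retained RUNX1 probes, for the other part of the fusion, had log2 fold changes from -0.26 to 0.03, none called (limma adjusted p from 0.510 to 0.945). The ETV6 groups did not overlap, and where the ETV6 and RUNX1 probes lie relative to the fused part was not analysed here. The study itself reports silencing of the fusion in REH cells, examined by western blot for the protein and RT-qPCR for the transcript. Among marker lists, 11 of 12 B-cell precursor genes were retained, 3 of 5 T-cell, 4 of 6 myeloid, 2 of 4 erythroid and 1 of 4 NK-cell genes. VPREB1, a surrogate light chain gene, was the B-cell precursor gene without a retained probe. The mean normalized value over the retained B-cell precursor probes ran from 12.59 to 12.68 in control and from 12.84 to 12.95 in knockdown, and that over the myeloid probes from 8.96 to 9.07 and from 8.35 to 8.73. The corresponding T-cell means ran from 5.89 to 6.04 and from 5.99 to 6.75, the erythroid means from 6.84 to 7.05 and from 6.83 to 7.07, and the only retained NK-cell probe, of NKG7, from 7.45 to 7.66 and from 7.92 to 8.53, with the other NK-cell genes NCAM1, KLRD1 and GNLY at background. Myeloperoxidase (MPO) was the only called marker, with a log2 fold change of -2.02 (limma adjusted p = 0.00107). Of all retained probes, 1.74% were called, 1.28% as lower. The 4 retained myeloid probes, MPO among them, had a median log2 fold change of -0.09 and a highest value of 0.07. With the replicate number as a block, 4 of 16 retained B-cell precursor probes were called too, against 3.78% of all retained probes. The part of these lists in the results was not tested. Control replicates 1 and 2 lay on one row of the slide, and control replicate 3 lay on the other row with all knockdown arrays.

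ATP6V0A4 was lower in every knockdown array than in every control array. Its probe A_23_P215111 measured normalized log2 values of 9.97, 9.81 and 9.82 in control and 7.30, 6.99 and 7.01 in knockdown. Raw intensities were 969, 914.5 and 979 in control and 197, 138 and 137 in knockdown, all well above background by the scanner's flag. The 3 control values lay close together, knockdown replicate 1 stood highest of its group, and the groups were far apart. The mean fell from 9.86 ± 0.09 (SD, n = 3) to 7.10 ± 0.17 (SD, n = 3), a log2 fold change of -2.77 (SE 0.12) or a 6.80-fold lower normalized level. In bulk RNA, fewer expressing cells and less RNA per cell cannot be told apart. Only 3 of the 27425 retained probes had a larger decrease, and the next smaller one was -2.76. With the slide row as a term in the fit, which rests on control replicate 3 as the only control on the knockdown row, the log2 fold change was -2.72.

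TCIRG1, the a subunit gene of lysosomes and osteoclasts, did not share this decrease. Its probe A_33_P3219965 measured 11.54, 11.42 and 11.30 in control and 11.98, 11.71 and 11.58 in knockdown. Every knockdown array was above every control array, though by little, and knockdown replicate 1 was the highest of the 6. The log2 fold change was 0.33 (SE 0.13) with a 95% interval of 0.03 to 0.63, and the limma test did not call it over all retained probes (adjusted p = 0.340). Within each array, the ATP6V0A4 value minus the TCIRG1 value was -1.57, -1.61 and -1.48 in control and -4.68, -4.73 and -4.56 in knockdown. Only the change of this difference between groups can be read, since the levels of 2 different probes are not comparable. It shifted by -3.10 with SDs of 0.07 and 0.08, and because the comparison was chosen for it, it is given with no test.

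ATP6V0A1, the a subunit gene known from neurons, was at background. Its probe A_24_P333733 gave raw intensities of 50, 49 and 55 in control and 53, 52 and 57 in knockdown, and none of the 6 arrays held it well above background. The probe did not pass the filter, so its difference was not tested, and no fold is given. ATP6V0A2 was not analysed here. Of the a subunit genes with a probe, ATP6V0A4 and TCIRG1 were thus the ones with a measurable signal in these cells, and the plot of raw intensities shows all 3 genes beside the negative controls.

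**Figure D1:**
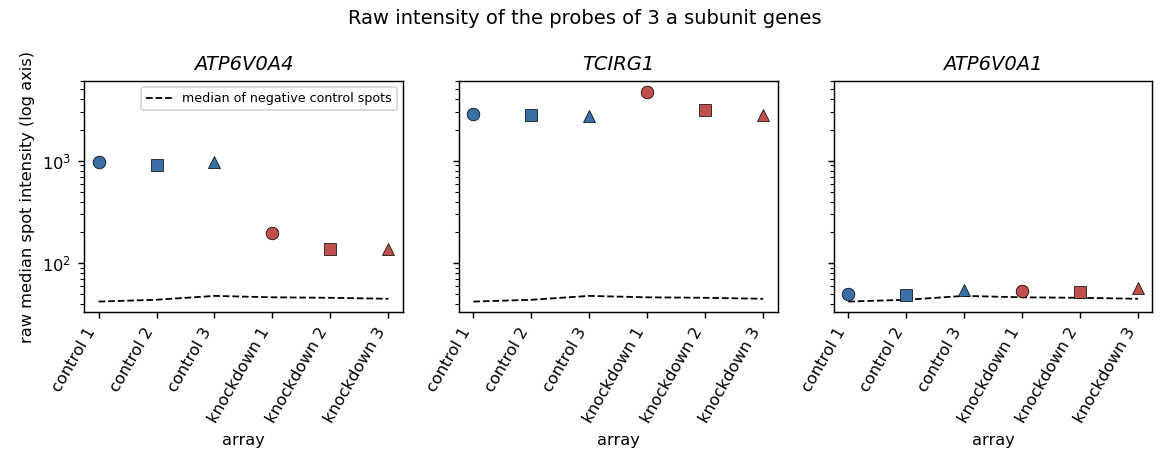
Raw median spot intensity (log axis) of the probes of ATP6V0A4, TCIRG1 and ATP6V0A1 on each of the 6 arrays, with control arrays in blue, knockdown arrays in red and circles, squares and triangles for replicates 1, 2 and 3. The dashed line joins the medians of the negative control spots, which ATP6V0A1 stays near, while ATP6V0A4 goes from 914.5 or more in control to 197 or less in knockdown.

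The proteolipid ring of V0 is built from the products of ATP6V0C and ATP6V0B. ATP6V0C measured 16.48, 16.27 and 16.37 in control and 16.21, 16.20 and 16.34 in knockdown, and the groups overlapped. Its log2 fold change was -0.12 with a 95% interval of -0.36 to 0.11 (limma, adjusted p = 0.678). ATP6V0B measured 13.04, 13.22 and 13.02 in control and 13.32, 13.21 and 13.28 in knockdown. Here control replicate 2 reached into the range of the knockdown arrays, and the log2 fold change was 0.17 with an interval of -0.06 to 0.41 (limma, adjusted p = 0.543). Neither difference passed the test, and both intervals leave out a change of the size seen for ATP6V0A4.

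ATP6V0D1 encodes the subunit that links the ring to the rotor of V1, and ATP6V0E1 a small membrane subunit. ATP6V0D1 measured 12.36, 12.42 and 12.24 in control and 12.50, 12.59 and 12.46 in knockdown, without overlap. Its log2 fold change of 0.18 had an interval of -0.05 to 0.40 (limma, adjusted p = 0.523). ATP6V0E1 measured 13.84, 13.91 and 13.81 in control and 13.62, 13.66 and 13.46 in knockdown, so that each knockdown array lay below each control array. The log2 fold change was -0.27 (SE 0.10) with an interval of -0.50 to -0.04, and it was not called (limma, adjusted p = 0.303).

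The accessory subunits ATP6AP1 and ATP6AP2 take part in assembly and targeting of the pump, and ATP6AP2 is also known as the (pro)renin receptor. ATP6AP1 measured 13.11, 12.75 and 12.80 in control and 13.06, 12.65 and 12.86 in knockdown, with replicate 1 highest in both groups. Its log2 fold change of -0.03 had an interval of -0.36 to 0.30 (limma, adjusted p = 0.953), and the sign depended on the setting. ATP6AP2, measured on 5 spots per array, gave 11.84, 11.77 and 11.71 in control and 11.67, 11.63 and 11.74 in knockdown. Its groups overlapped, and the log2 fold change was -0.09 with an interval of -0.31 to 0.12 (limma, adjusted p = 0.735).

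Of the 9 member probes, 8 were retained. Leaving out ATP6V0A4, whose difference in this contrast chose the set, limma called 0 of the other 7 probes, whereas it called 1.74% of all retained probes, 1.28% as lower. Since the set was chosen with this contrast known, nothing is read from that count. The 7 probes comprised 3 with higher and 4 with lower values, with a median log2 fold change of -0.03 and a range from -0.27 to 0.33. At an unadjusted p under 0.05 in limma, 2 of these 7 passed, TCIRG1 in the higher and ATP6V0E1 in the lower direction, against 12.5% of all retained probes. Non-overlapping groups were found for 3 of these 7, TCIRG1, ATP6V0D1 and ATP6V0E1, against 18.9% of all retained probes, from which nothing is read either. Over all retained probes, the median log2 fold change was -0.00. The direction of ATP6V0C, ATP6V0E1, ATP6AP1 and ATP6AP2 turned to higher when arrays were scaled on spike-in probes, which moved the median of all probes to 0.35.

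**Figure D2:**
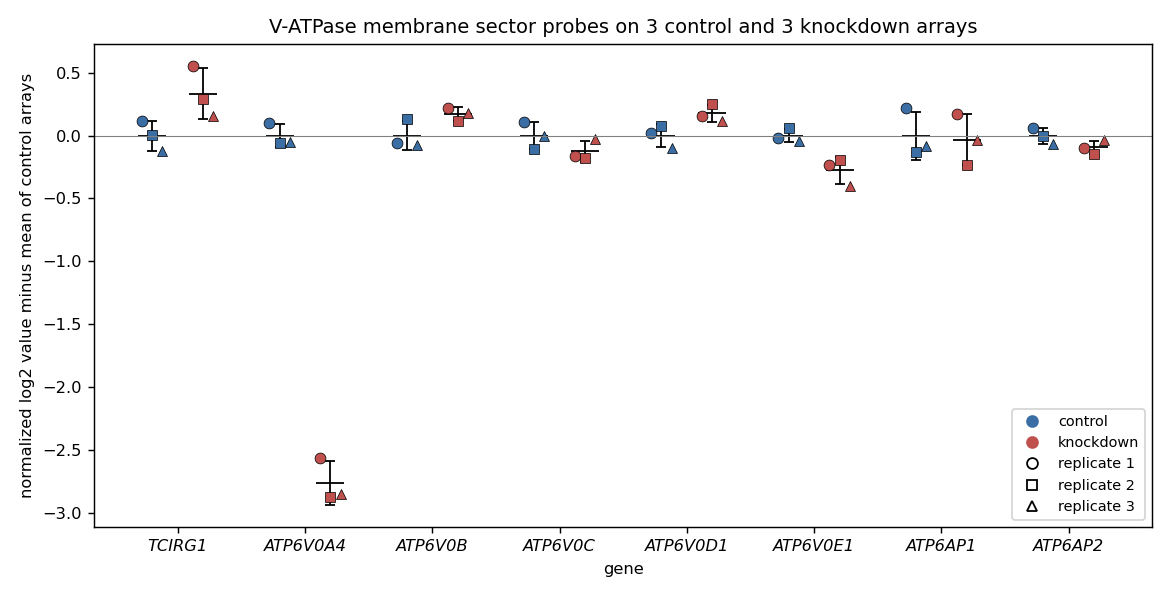
Normalized log2 value of each retained member probe on each array (circles, squares and triangles for replicates 1, 2 and 3), given as the difference from the mean of the 3 control arrays, with the horizontal and vertical bars showing group mean and SD. The knockdown arrays of ATP6V0A4 sit near -2.77, while the means of the other 7 genes lie between -0.27 and 0.33.

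Next, the other V0 subunits and the V1 sector were examined as lists named from the known makeup of the pump. ATP6V0E2, an alternative to ATP6V0E1, measured 8.53, 8.49 and 8.47 in control and 8.95, 8.87 and 9.17 in knockdown. All knockdown arrays were above all control arrays, the log2 fold change was 0.50 (SE 0.11, interval 0.25 to 0.75), and it did not pass the limma test (adjusted p = 0.0783), though with spike-in scaling, where the median of all probes was 0.35, it was called at 0.85 (adjusted p = 0.0200). RNASEK, a small V0 subunit, had a log2 fold change of -0.00 with an interval of -0.21 to 0.21 (limma, adjusted p = 0.998). ATP6V0D2, the alternative to ATP6V0D1, was not retained, and no array held it well above background.

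Of the 13 V1 genes, 12 had a probe and 10 had a retained one, and 0 of their 11 retained probes were called by limma, with 8 higher, 3 lower and a median log2 fold change of 0.06. For this list and those that follow, the 1.74% of all retained probes that were called gives the background, and a count of 0 calls is near it and is no result about a list. At an unadjusted p under 0.05, 3 of the 11 passed, against 12.5% of all retained probes here and for the lists that follow, namely both probes of ATP6V1C1 and that of ATP6V1G2. ATP6V1C1 encodes a stator subunit at the interface of V1 and V0. Its probe A_23_P146058 measured 10.39, 10.50 and 10.60 in control and 10.80, 10.92 and 11.09 in knockdown, without overlap. The log2 fold change was 0.44 (SE 0.11, adjusted p = 0.135 in limma), and with the replicate number as a block the adjusted p was 0.0475, which makes it the only V1 probe called under the block, where 3.78% of all retained probes were called. The other ATP6V1C1 probe, A_33_P3380897, had a log2 fold change of 0.38 (adjusted p = 0.112 in limma). ATP6V1G2, a stalk subunit, measured 7.82, 7.75 and 7.86 in control and 8.36, 8.06 and 8.28 in knockdown, which is 0.42 higher on the log2 scale (adjusted p = 0.137 in limma). The lowest V1 value was that of ATP6V1G1, -0.22 with an interval of -0.51 to 0.08 (limma, adjusted p = 0.551). The catalytic subunit ATP6V1A had 0.01 with an interval of -0.25 to 0.27, and ATP6V1B1 and ATP6V1G3 were not retained.

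For assembly factors and regulators of the pump, limma called 0 of 11 retained probes from 8 of 11 genes, with 1 at an unadjusted p under 0.05. The largest fall among them was a log2 fold change of -0.33, and -0.25 on the other probe, for OXR1, a protein of the family that binds and regulates the V-ATPase (adjusted p = 0.228 in limma). The largest rise was 0.15 for ROGDI, a RAVE complex component (limma, adjusted p = 0.617). VMA21, which assists V0 assembly in the endoplasmic reticulum, had -0.14 and -0.11 on its 2 probes. The intervals of all V-ATPase genes are shown side by side in the plot of log2 fold changes.

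**Figure D3:**
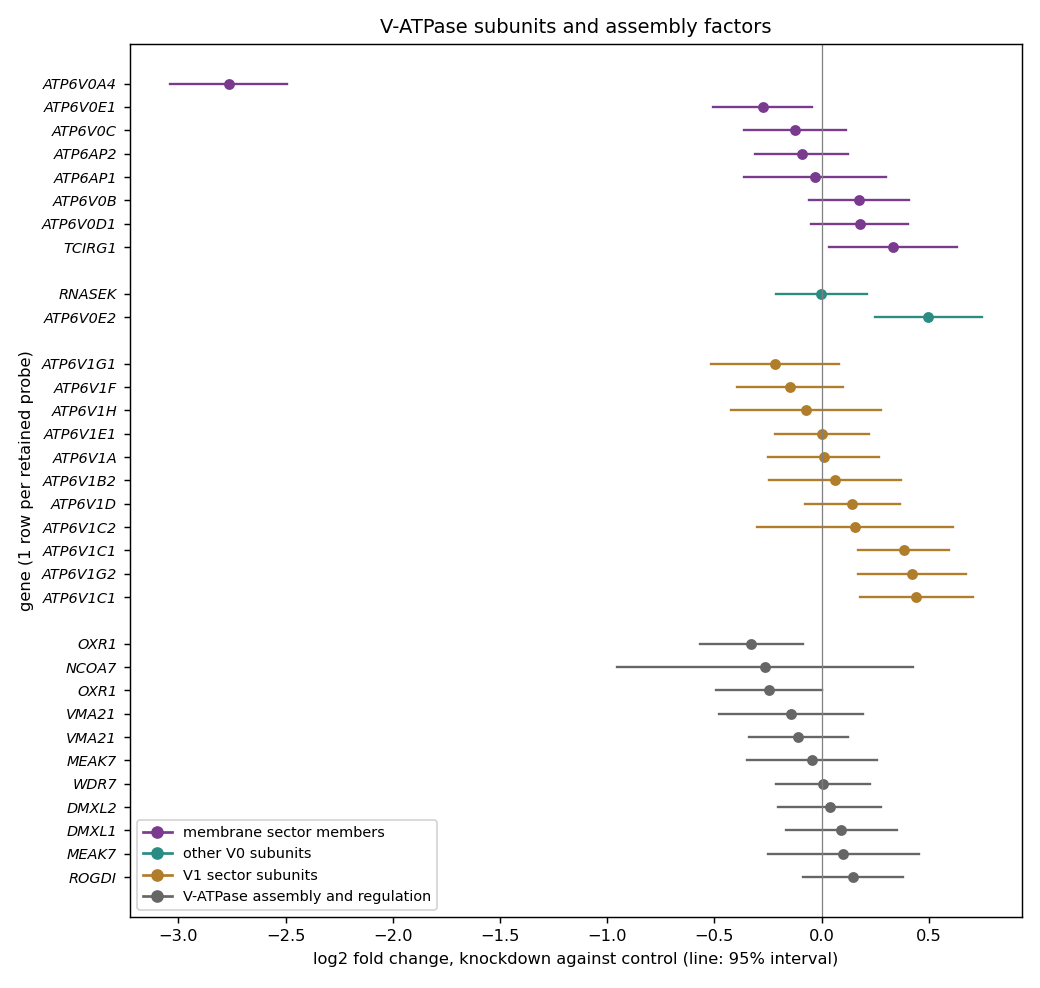
Log2 fold change of knockdown against control for each retained probe of the V0 members, other V0 subunits, V1 subunits and assembly factors, with a line for the 95% interval. ATP6V0A4 lies at -2.77, and every other probe lies between -0.33 and 0.50. The interval of ATP6V0A4 is a description and no test, since its difference chose the set.

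Because ATP6V0A4 is known from acid-secreting kidney cells, genes of renal intercalated cells were examined as well. Of 20 probes for 14 genes, 7 were retained, from 6 genes, and 0 of these were called by limma, with 0 at an unadjusted p under 0.05. FOXI1, the transcription factor that specifies these cells, and SLC26A4, their chloride and bicarbonate exchanger, were at background on all 6 arrays by the scanner's flag. RHCG, an ammonia channel, had the largest fall with -0.51, which rested on control replicate 3 at 8.04 while the other 5 arrays lay between 6.27 and 6.60 (limma, adjusted p = 0.669). With the slide row as a term, which leaves that array as the only control on its row, RHCG was called (-1.64, adjusted p = 0.00922). The largest rise was 0.15 for ATP6V1C2 (limma, adjusted p = 0.804). CA2, a carbonic anhydrase, was well above background on all 6 arrays, as were the 2 retained probes of SLC4A1, an anion exchanger. The SLC4A1 probes A_23_P89380 and A_24_P385190 were not retained, with 2 and 0 arrays well above background. The groups overlapped for all 7 retained probes, while 18.9% of all retained probes had groups that did not.

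The pump works in the lysosomal membrane together with transporters and with the nutrient-sensing mTORC1 machinery. Of 16 retained probes for lysosomal membrane proteins, 0 were called by limma and 2 passed at an unadjusted p under 0.05, with a median of -0.07. TPCN1, a two-pore ion channel, had the largest fall with -0.45 (adjusted p = 0.256) and -0.32 on its other probe, and NPC1, a cholesterol transporter, the largest rise with 0.22 (limma, adjusted p = 0.486). Of 17 retained probes for mTORC1 docking at the lysosome, 0 were called and 2 passed at an unadjusted p under 0.05, with a median of -0.08. LAMTOR3, a Ragulator subunit, had the largest fall with -0.46 on A_23_P110362 (adjusted p = 0.351, and 0.0416 without knockdown replicate 1), whereas its other probe had -0.06 (limma, adjusted p = 0.923). MTOR had the largest rise with 0.23 (limma, adjusted p = 0.340). TFEB and TFE3, transcription factors that drive lysosomal genes, had log2 fold changes from 0.08 to 0.19 on 4 probes, 0 of them called by limma or at an unadjusted p under 0.05. MITF and TFEC of the same family were not retained.

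Among exchangers that balance the charge or pH of acidic organelles, 1 of 12 retained probes was called in the higher direction, against 0.459% of all retained probes, and 4 passed at an unadjusted p under 0.05. This was CLCN5, a chloride and proton exchanger of endosomes, whose probe A_33_P3415092 measured 6.94, 7.07 and 6.90 in control and 7.45, 7.46 and 7.55 in knockdown. The groups did not overlap and the log2 fold change was 0.52 (limma, adjusted p = 0.0445). The call was lost in 12 of 16 alternative settings, at log2 fold changes from 0.37 to 0.61. The other CLCN5 probe had 0.22 (limma, adjusted p = 0.642). SLC9A9, a sodium and proton exchanger of endosomes, had the largest fall of the list. It measured 10.37, 10.15 and 9.78 in control and 9.81, 9.28 and 8.87 in knockdown, so the groups overlapped although each knockdown array lay below the control array of its number. The log2 fold change was -0.78 (limma, adjusted p = 0.219), and with the replicate number as a block it was called (adjusted p = 0.0141).

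ATP6V0A4 lies on chromosome 7, and the 5 protein-coding genes on each side of it in the RefSeq gene order were examined. SVOPL, a putative transporter related to synaptic vesicle proteins and the nearest gene on one side, was lower as well. It measured 9.13, 8.78 and 8.74 in control and 6.88, 6.73 and 6.93 in knockdown. All knockdown arrays were far below all control arrays. The log2 fold change was -2.03 (SE 0.13, limma adjusted p = 0.000587), and the call held in all 16 alternative settings. TRIM24, a chromatin reader and transcriptional co-regulator that follows SVOPL on that side, measured 14.78, 14.73 and 14.58 in control and 13.97, 14.04 and 13.95 in knockdown. Its groups did not overlap and the log2 fold change was -0.71 (SE 0.10, adjusted p = 0.0124 in limma). The TRIM24 call was lost with spike-in scaling (-0.36, adjusted p = 0.283) and with a slide row term (-0.59, adjusted p = 0.196). It was also lost, at log2 fold changes from -0.73 to -0.69, when control replicate 2 (adjusted p = 0.0873) or either of knockdown replicates 2 (0.0556) and 3 (0.0654) was left out.

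CREB3L2, a transcription factor anchored in the endoplasmic reticulum, lies farther out on the same side and had 2 retained probes. A_33_P3320888 measured 9.26, 9.19 and 9.16 in control and 8.78, 8.64 and 8.73 in knockdown. Its log2 fold change was -0.49 (adjusted p = 0.0495 in limma), and this call was lost in 13 of 16 alternative settings. The log2 fold change was -0.14 with spike-in scaling and from -0.52 to -0.45 in the other settings without a call. The other CREB3L2 probe, A_33_P3211739, had -0.46 with overlapping groups (adjusted p = 0.390). AKR1D1 and DGKI on that side were not retained. On the other side, TMEM213 was not retained, and KIAA1549, ZC3HAV1L, ZC3HAV1 and IFT56 had 6 retained probes with log2 fold changes from -0.24 to 0.04, none of them called by limma (adjusted p from 0.502 to 0.964).

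In all, 3 of the 10 retained probes of these neighbors were called, all lower, against 1.28% of all retained probes called as lower. The range was then widened to 20 genes on each side, after the first 10 had been seen. Of the genes ranked 6 to 20 on the SVOPL side, 12 genes had 15 retained probes with log2 fold changes from -0.27 to 0.28, of which 6 were lower and 0 were called. On the other side, 12 genes had 15 retained probes from -0.46 to 0.25, of which 12 were lower and 0 were called, and 50.3% of all retained probes were lower. The calls thus lay within the first 4 genes on one side of ATP6V0A4, as the plot by gene order shows.

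**Figure D4:**
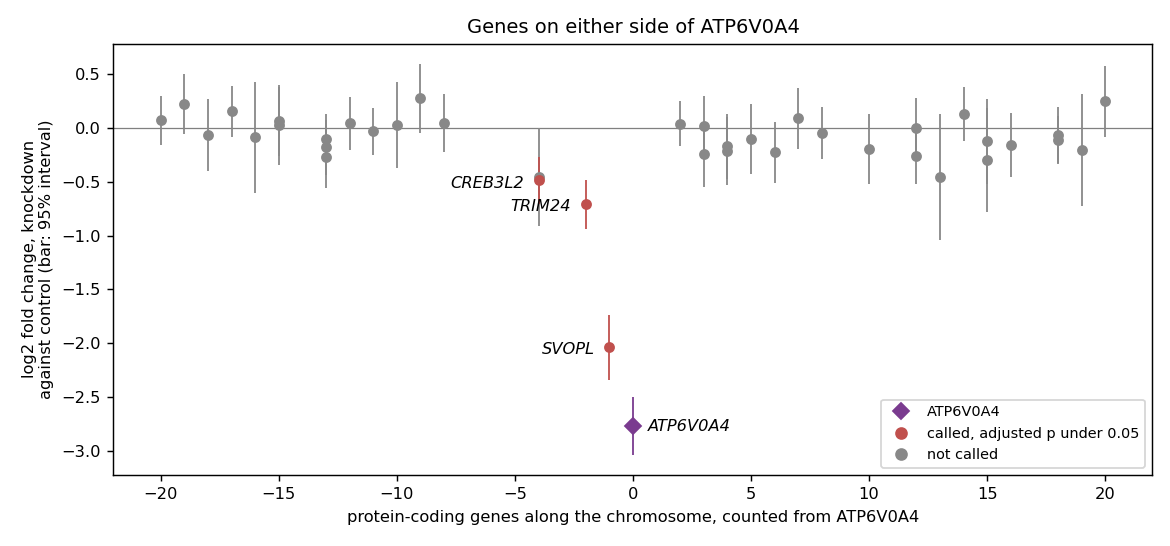
Log2 fold change of knockdown against control (bars for the 95% interval) for each retained probe of the protein-coding genes around ATP6V0A4, ordered along the chromosome and counted from ATP6V0A4 at 0. ATP6V0A4 (diamond) lies at -2.77 and SVOPL at -2.03, TRIM24 and 1 CREB3L2 probe are also called, and the remaining probes lie between -0.46 and 0.28. The interval of ATP6V0A4 is a description and no test.

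Last, the genes whose normalized values ran most like those of ATP6V0A4 over the 6 arrays were listed by Pearson's r, as a description. The 10 named genes with the highest r, from 0.9968 to 0.9995, were EFNA1, CTSL, EEF1AKMT2, TM4SF1, NRP1, SOCS2, MECOM, OLIG3, GIMAP7 and ITGA6. All 10 had lower values in knockdown, with log2 fold changes from -0.44 for EEF1AKMT2 to -4.71 for TM4SF1. EFNA1, an ephrin ligand, had -2.29 and CTSL, a lysosomal cysteine protease, had -1.84. The values share the same arrays, and any probe with a clear and even decrease has a high r with ATP6V0A4 over 2 groups of 3.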

How the data were processed

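Total RNA of 6 REH samples was labelled with Cy3 and hybridized to a custom Agilent array with 34134 catalogue and 23042 lncRNA probes. The deposited scanner files hold raw spot intensities, extracted by the authors with Feature Extraction 10.7.1.1. A table of the authors' normalized log2 values for 27869 probes was deposited too and used as an alternative, and their methods name VSN normalization, background subtraction, a negative control filter and limma.

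The VSN model was written anew and fitted to the median spot intensity with the 0.9 quantile of least squares. Spots of a probe were averaged, and outlier flags were left out. The threshold of an array was the 0.95 quantile of the 308 negative control spots, in normalized log2 values, multiplied by 1.1. The factor thus acted on the log2 values and not on the intensities. Retained probes lay above this threshold on at least 2 of 3 arrays of a group. The methods do not give the scale of this threshold, and it was chosen by closeness to the deposited table. This left 27425 probes, of which 27080 are in the deposited table, and values correlated with it at r of 0.999 or more per array, across probes.

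The comparison used limma 3.58.1 (R 4.3.3), two-sided, with no block and Benjamini-Hochberg adjustment over all retained probes. For 1 probe, an exact two-sided permutation test over 3 and 3 arrays has a smallest p of 0.1, and the number of arrays limits precision. The fit was tried on simulated data with independent noise per array, where 200 probes were changed by 1 or 2 log2 units. It called 88.5% of these, and 3.80% of its calls were unchanged probes. The simulation held no shift shared by numbered arrays or slide rows, so it cannot tell how the fit handles those. Same-numbered arrays deviated from their group means together (r of 0.43, 0.29 and 0.20 for numbers 1, 2 and 3, each over the 0.1 required). Arrays of different number had r from -0.33 to 0.19. Numbers 2 and 3 were close to each other at 0.17 and 0.19, also over 0.1, so that number 1 alone stood apart. The labels give only numbers, so a pairing by number is not established, and it was tried as a replicate block only.

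Catalogue probes were named through a RefSeq gene table of GRCh38, a later build than the hg19 of the array design, with a symbol for 75.4% of them. Members, gene lists and tests were chosen with earlier results of these data known. Named genes were all members, all 10 nearest neighbors of ATP6V0A4, in each other list any called gene or else the largest rise and fall, and the 10 genes most like ATP6V0A4. Other genes named, among them SLC9A9, ATP6V1A, ATP6V1G2, VMA21, MPO, CA2, SLC4A1 and probes at background such as FOXI1, were picked after their values were seen. The 16 alternatives changed the normalization, scaling, filter, test, block, slide row and probe averaging or left out single arrays.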

Additional observations from a re-analysis of the deposited data

How the results depend on the processing

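Leaving out ATP6V0A4, no member probe was called in any of the 16 alternatives. The log2 fold change of ATP6V0A4, a description, was -2.37 with normexp and quantile normalization, -3.10 with the processed signal scaled on the 75th percentile, -2.41 with spike-in scaling, and from -2.87 to -2.71 without single arrays. The change of ATP6V0A4 minus TCIRG1 was -2.69, -3.47 and, in the deposited table, -3.20, and from -3.15 to -3.06 without single arrays. Reversed signs were found under spike-in scaling for ATP6AP1 (0.32), ATP6AP2 (0.26), ATP6V0C (0.23) and ATP6V0E1 (0.078). ATP6AP1 also reversed with the processed signal (0.013) and the slide row (0.055), and it ran from -0.13 to 0.079 without single arrays. Spike-in scaling adds about 0.35 to every log2 fold change, which turns these signs, and the cause of the other reversals was not tested.

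Over all retained probes, 477 were called, but 1067 with spike-in scaling, 224 with no filter on dim probes, 234 with the slide row as a term, and from 191 to 553 without single arrays (282, 191 and 258 without control replicates 1, 2 and 3, and 553, 214 and 205 without knockdown replicates 1, 2 and 3). The share of calls that were lower was 73.6%, against 15.0% with spike-in scaling, where the scaling itself moved all probes, and 91.0% with the slide row. With the replicate block, 1038 were called. Of V1 probes, 2 were called with spike-in scaling and 1 with the replicate block, ATP6V1C1. Beside ATP6V1C1 and SLC9A9, the pairing changed no call of a probe named in the text. Of the other lists, marker lists left out, 4 probes were called (SVOPL, TRIM24, CREB3L2 and CLCN5). SVOPL and TRIM24 were the 2 called with the processed signal, no filter or probes of a gene averaged, SVOPL and RHCG the 2 with the slide row, and without single arrays 1 to 3 were called, SVOPL each time. The block called 5, the 4 and SLC9A9. Signal at background for ATP6V0A1 limits what can be said of the a subunits.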
